A study of Rattus norvegicus with 18 samples.

Results

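The genes described here encode chondroitin sulphate proteoglycans, tenascins and a link protein of the brain extracellular matrix, the components from which perineuronal nets are built. They were chosen by name, as the rows whose symbol was Acan, Bcan, Ncan, Vcan, Tnc, Tnr, Hapln1, Cspg5 or Ptprz1. All 9 were found among the 31463 rows of each library, and all 9 were among the 14398 genes that passed the filter on low counts.

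Messenger RNA was sequenced from primary neuroglial cultures of the cortex of newborn Wistar rats, which hold neurons and glial cells together. The 18 libraries formed 6 groups of 3. Control cultures received no glutamate, and the Glutamate group received 100 µM glutamate as a model of excitotoxicity, the damage of neurons by excess glutamate. The Memantine group received glutamate with 100 µM memantine, a drug that closes the channel of NMDA receptors. The groups Glutamate_vesicles, Glutamate_secret and Glutamate_BPC received material released by human glial progenitor cells on the day before glutamate. The first of these was given extracellular vesicles. The other preparations were a protein fraction of 3 to 100 kDa and the total secretome, and the labels leave it unclear whether Glutamate_secret or Glutamate_BPC is the fraction, so these names are used as given. All cultures were at day 10 in vitro, and RNA was taken after a further 4 h in culture medium once the exposure had ended. The labels number the libraries 1 to 3 within each group. The study's methods speak in general of unrelated cultures, and its supplement names a day covariate, but neither ties a library to a culture or a day. Whether equal numbers share one is therefore not known, and the p-values measure the spread between these libraries only.

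A perineuronal net is a condensed form of extracellular matrix that wraps the cell body and proximal dendrites of certain neurons, best known for cortical interneurons that hold parvalbumin. Hyaluronan forms its backbone, the lecticans (aggrecan, brevican, neurocan and versican) bind to it, link proteins such as Hapln1 fix that bond, and tenascin-R joins lecticans at their other end. Neurocan, versican and tenascin-C are typical of the young and injured brain matrix, whereas aggrecan and tenascin-R are typical of the mature net. Much of this matrix is made by astrocytes and cells of the oligodendrocyte lineage.

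RefSeq (build GRCr8) gave the promoters of 7 members in 8 entries, and Cspg5 and Ptprz1 had no entry. The 250 bases before the start site are shown for Ncan, Vcan and Tnc, whose levels moved together across the libraries as described below, and for Bcan, whose level did not follow them. Capitals mark matches to common promoter motifs, which were searched on both strands. The letters sought were TATAAA for the TATA box, which places the transcription start. For the site of NF-Y, the CCAAT box, they were CCAAT. For the GC box, which factors of the Sp family bind, they were GGGCGG. The element of AP-1 was searched as TGANTCA, where N is any base. An E-box, the site of many helix-loop-helix factors, was searched as CACGTG. The windows are chr16:19335657-19335906, plus strand, for Ncan, chr2:22595956-22596205, minus strand, for the first of the start sites of Vcan, chr5:82476132-82476381, minus strand, for Tnc, and chr2:175765315-175765564, minus strand, for Bcan.
Ncan: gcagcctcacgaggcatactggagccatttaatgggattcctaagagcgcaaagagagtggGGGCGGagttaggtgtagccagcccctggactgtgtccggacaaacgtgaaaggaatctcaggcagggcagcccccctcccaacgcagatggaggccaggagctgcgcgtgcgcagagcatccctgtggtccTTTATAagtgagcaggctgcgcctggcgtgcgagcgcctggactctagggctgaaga
Vcan: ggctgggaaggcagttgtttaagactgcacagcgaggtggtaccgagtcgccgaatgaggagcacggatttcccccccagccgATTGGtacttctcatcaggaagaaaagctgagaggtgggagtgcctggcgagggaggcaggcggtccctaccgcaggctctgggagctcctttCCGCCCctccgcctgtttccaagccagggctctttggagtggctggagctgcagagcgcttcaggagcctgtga
Tnc: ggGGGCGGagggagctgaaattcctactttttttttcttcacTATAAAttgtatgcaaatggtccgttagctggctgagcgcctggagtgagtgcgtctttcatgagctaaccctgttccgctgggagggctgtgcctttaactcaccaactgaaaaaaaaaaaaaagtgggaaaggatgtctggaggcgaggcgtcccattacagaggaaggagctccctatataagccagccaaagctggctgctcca
Bcan: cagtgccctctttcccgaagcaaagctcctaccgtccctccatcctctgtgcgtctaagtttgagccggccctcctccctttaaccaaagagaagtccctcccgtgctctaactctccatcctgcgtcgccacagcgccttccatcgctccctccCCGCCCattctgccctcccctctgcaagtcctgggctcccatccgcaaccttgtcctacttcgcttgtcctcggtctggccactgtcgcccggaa

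A GC box was found 1 time in each of these windows. Its first base lay 189 bases before the start site in Ncan, 74 in Vcan, 248 in Tnc and 95 in Bcan. It was found in 30.5% of the windows of the same length of all 33469 promoter entries. The Ncan and Tnc windows each also held the letters of the TATA box, 57 and 208 bases before the start, a match present in 12.9% of all windows. In Ncan these letters lay on the opposite strand (TTTATA), and whether either match places the start was not tested. Variants of these letters were not searched, such as the unmarked tatataag near the start-site end of the Tnc window. The Vcan window held a CCAAT box (34% of all windows). No AP-1 element (6.34%) and no E-box of this type (5.59%) was found in the 8 member windows. The share of G and C was 60.8% in Ncan, 61.6% in Vcan, 49.6% in Tnc and 61.2% in Bcan, against a median of 51.2%. These are matches of letters only. No motif of the list was common to Ncan, Vcan and Tnc and missing from Bcan.

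Levels are given as CPM, the read count scaled to a common library size. The libraries held between 8409574 (Control 1) and 17206354 (Glutamate_vesicles 2) counts in all. Ribosomal RNA (rRNA) made up 3.04% to 43.0% of the counts. The lists of markers for neurons, astrocytes, oligodendrocyte progenitors, oligodendrocytes and microglia were all detected. Endothelial markers summed to at most 4.21 CPM in any library, and the fibroblast markers Dcn and Lum had a median of 0 CPM.

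**Figure D1:**
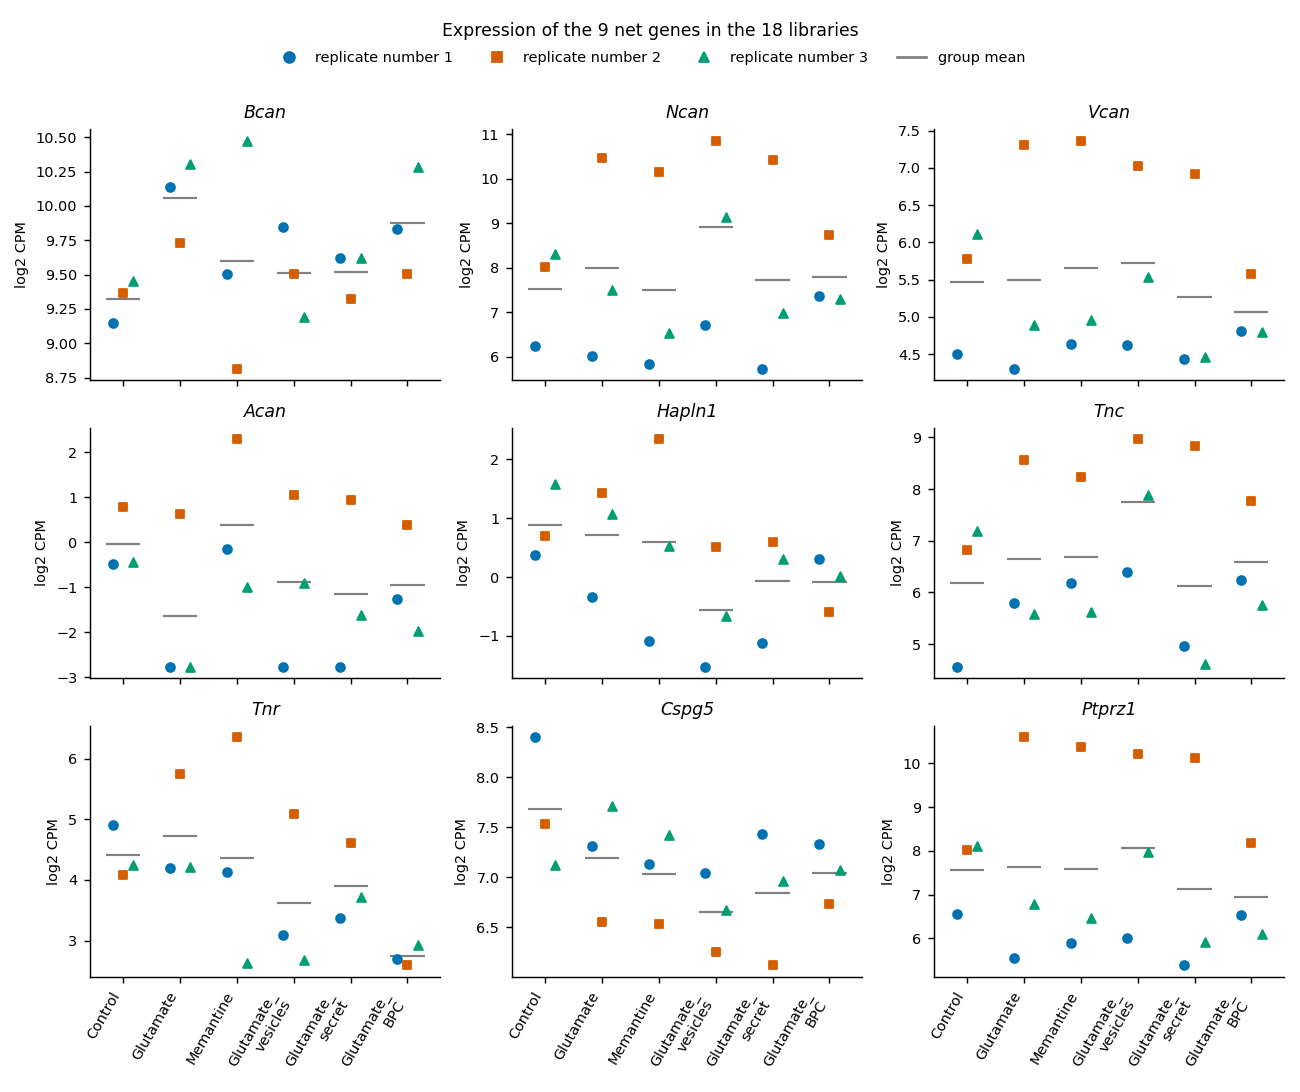
Levels of the 9 genes in each library, as log2 CPM with a prior count of 2 (vertical axes, which differ between panels), by group (horizontal axis). Points are single libraries, coloured and shaped by replicate number, and grey lines are group means (n = 3). For Ncan, Vcan, Tnc and Ptprz1 the library with number 2 was the highest in 5 of 6 groups.

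The lecticans spanned a wide range. Brevican (Bcan), the lectican most typical of astrocytes, was the steadiest member. It had 567, 659 and 702 CPM in the Control libraries with numbers 1 to 3, and 1124, 849 and 1266 CPM in the Glutamate libraries. Every Glutamate library was therefore above every Control library. In the other groups it had 451 to 1424 CPM in Memantine, 584 to 920 in Glutamate_vesicles, 639 to 787 in Glutamate_secret and 727 to 1248 in Glutamate_BPC. Its highest level was 3.16 times its lowest, the smallest span among the 9 genes.

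Neurocan (Ncan), a lectican of the young brain that inhibits the growth of axons, spanned 34.8-fold. Control libraries 1 to 3 had 76.2, 260 and 317 CPM. Glutamate libraries had 65.1, 1413 and 181 CPM. Memantine libraries had 57.1, 1132 and 92.3 CPM. In these treated groups the library with number 2 stood far above the others. Glutamate_vesicles gave 105.7, 1851 and 561 CPM, and Glutamate_secret gave 53.2, 1373 and 127 CPM. Glutamate_BPC gave 165, 424 and 156 CPM. Group ranges overlapped throughout. Versican (Vcan), the lectican found around migrating cells and at nodes of Ranvier, was likewise higher in the libraries with number 2, with 19.6 to 27.98 CPM in the 6 libraries with number 1 and 47.6 to 165 CPM in those with number 2.

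Aggrecan (Acan), the defining lectican of the mature net, was close to the limit of detection. Its estimated counts were 0 to 86 per library, with a median level of 0.480 CPM and a highest level of 4.78 CPM in Memantine 2. The count was 0 in Glutamate 1 and 3, Glutamate_vesicles 1 and Glutamate_secret 1, which allows up to 0.387, 0.292, 0.299 and 0.472 CPM (3 counts, for counting error only). The link protein Hapln1, which stabilises the bond between lecticans and hyaluronan, was also rare, with 2 to 89 counts and 0.199 to 4.94 CPM. Fold changes of both genes rest on few reads. Parvalbumin (Pvalb), the marker of the interneurons that most often carry nets, had a median of 1.53 CPM.

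Tenascin-C (Tnc), a glycoprotein of immature and reactive glia, had 23.4, 113 and 146 CPM in Control and 55.1, 377 and 47.9 CPM in Glutamate. It was highest in Glutamate_vesicles, with 84.1, 501 and 235 CPM. The vesicle libraries overlapped with those of every other group. Tenascin-R (Tnr), made mainly by oligodendrocytes and some neurons and the partner of lecticans in the mature net, had 29.7, 16.8 and 18.8 CPM in Control and 18.1, 53.3 and 18.5 CPM in Glutamate. In Glutamate_BPC it had only 6.34, 5.88 and 7.48 CPM, below every library of Control, Glutamate and Glutamate_secret. Memantine (17.3, 81.3 and 6.04 CPM) and Glutamate_vesicles (8.37, 33.9 and 6.27 CPM) reached down into that range.

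Cspg5 (neuroglycan C) is a membrane-spanning proteoglycan of neurons and glia that carries an EGF-like domain. It had 338, 186 and 140 CPM in Control, 159, 93.9 and 210 in Glutamate and 132, 76.2 and 102 in Glutamate_vesicles. All 3 vesicle libraries were below the Control libraries. Ptprz1 is a receptor tyrosine phosphatase of glia and their progenitors. Its secreted form, phosphacan, is a matrix proteoglycan, and pleiotrophin and contactin bind to it. It had 93.7, 259 and 274 CPM in Control and 46.6, 1547 and 110 CPM in Glutamate. The libraries with number 2 of Memantine, Glutamate_vesicles and Glutamate_secret had 1319, 1184 and 1109 CPM, and their other libraries had 41.4 to 251 CPM. Glutamate_BPC again lacked such a high library, with 92.7, 291 and 68.4 CPM.

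In the order of the group means, neighbouring groups overlapped for every member, with the exception of Tnr, where Glutamate_secret (15.8 ± 7.36 CPM, SD, n = 3) lay above Glutamate_BPC (6.57 ± 0.826). This pair of groups was not tested, and no share of all genes is given for its separation. Control had the lowest mean for Bcan, Ncan and Tnc and the highest for Cspg5. Glutamate_BPC had the lowest mean for Vcan, Tnr and Ptprz1. The spread within groups was large, and for Ptprz1 the SD was above the mean in Glutamate (568 ± 849 CPM), Memantine (489 ± 719), Glutamate_vesicles (499 ± 600) and Glutamate_secret (403 ± 611).

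Glutamate was set against Control to ask how excitotoxicity changes the net genes. None of the 9 members passed the quasi-likelihood test of edgeR at an adjusted p below 0.05, and none had an unadjusted p below 0.05. All genes together gave 0% at the adjusted threshold and 8.11% at the unadjusted one. The likelihood-ratio test of edgeR and DESeq2 also called 0 members, but their shares of all genes called are not given here. Bcan showed a log2 fold change of 0.75 (SE 0.42, adjusted p = 0.763), with group ranges that did not overlap. This separation was found in 1 of the 9 members and in 12.2% of all genes (4.48% with the higher level in Glutamate). The estimates were 1.34 (SE 1.39) for Ncan, 0.50 (SE 0.93) for Vcan, 0.76 (SE 1.15) for Tnc and 1.44 (SE 1.51) for Ptprz1. Without Glutamate 2 these became -0.82, -0.995, -0.87 and -1.42, so that the sign of all 4 was set by that library, as was that of Tnr (-0.24 without it). The estimates for Acan (-0.90, SE 1.58), Hapln1 (-0.11, SE 0.88), Tnr (0.47, SE 0.79) and Cspg5 (-0.52, SE 0.44) did not pass the threshold either. Without Glutamate 2 the value of Cspg5 was -0.26, and the remaining Glutamate libraries had 0 counts of Acan (unadjusted p = 0.0395 and adjusted p = 0.612 in the edgeR test). At an unadjusted p below 0.05 that fit gave 1 member and 8.1% of all genes. In the fit to all 18 libraries, the median log2 fold change was 0.50 over the members and 0.08 over all genes.

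Summed markers of neurons did not overlap between these groups, and those of astrocytes did. The 8 neuronal markers summed to 1933 to 2652 CPM in Control and to 568 to 1124 CPM in Glutamate, and all 8 had estimates below 0, of which 0 passed the adjusted threshold. The 8 astrocyte markers summed to 2954 to 6399 CPM in Control and to 5676 to 11335 CPM in Glutamate, with all 8 estimates above 0. In RNA of whole cultures, fewer cells of a type and less RNA per cell cannot be told apart. The part of these values in the level of Bcan was not tested.

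The comparison of Memantine with Glutamate addressed the effect of blocking NMDA receptors during the exposure. No member was called or had an unadjusted p below 0.05, against 0% and 5.08% of all genes, and none separated (2.86%). Acan had the largest estimate, 1.96 (SE 1.58), on counts of 7, 86 and 5 against 0, 22 and 0. The other 8 estimates were between -0.37 and 0.35. With the replicate number as a block, which the pairing of these libraries allows, Acan had an unadjusted p of 0.0223 in the edgeR test (log2 fold change 2.37, adjusted p = 0.463). In that fit 1 member and 8.03% of all genes had an unadjusted p below 0.05. Against Control and without the block, 8 of 9 estimates were above 0, as were 59.9% of all genes. No member was called, had an unadjusted p below 0.05 (1.12% of all genes) or separated from the Control range (2.35%).

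The vesicle group was compared with Glutamate to ask what vesicles added to the glutamate response. No member was called, none had an unadjusted p below 0.05 (1.08% of all genes), and no member's groups separated (6.27%). The largest estimates were -1.34 for Hapln1 (SE 0.89), -0.89 for Tnr (SE 0.79) and 0.77 for Tnc (SE 1.15). Against Control, Cspg5 was lower by a log2 fold change of -1.10 (SE 0.44, unadjusted p = 0.0244 in the edgeR quasi-likelihood test, adjusted p = 0.344), and the groups did not overlap. No member was called, as against 0.0139% of all genes. Cspg5 was the only member that separated in this comparison, where 9.83% of all genes lay lower without overlap (19.5% in either direction) and 7.61% were lower at an unadjusted p below 0.05. Its unadjusted p was no longer below 0.05 without Control 1, where the log2 fold change was -0.65, nor without Glutamate_vesicles 2 or 3, where it was -0.92 and -1.08. It was also lost when all libraries of any 1 replicate number were left out. The neuronal markers were lower in the same groups, with sums of 555 to 863 CPM against 1933 to 2652 CPM. The markers of oligodendrocyte progenitors were higher, with 780 to 1258 CPM against 309 to 567 CPM. Over the 18 libraries, Pearson's r of Cspg5 was 0.471 with the neuronal sum and -0.811 with the progenitor sum. It was -0.791 with the sum for fibroblasts and mural cells. The part of these markers in the level of Cspg5 was not tested. Ncan (1.95, SE 1.41) and Tnc (1.53, SE 1.17) had higher estimates than in the comparison of Glutamate with Control, and these comparisons share the Control libraries.

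For Glutamate_secret against Glutamate, no member was called or had an unadjusted p below 0.05 (0.681% of all genes). Of the 9 estimates, 7 were below 0, with a median of -0.33 over the members and -0.0095 over all genes. With the replicate number as a block, 8 of 9 were below 0, with medians of -0.37 and -0.0028, while 49.8% of all genes had an estimate above 0. Bcan lay lower in every library (log2 fold change -0.55, SE 0.42, adjusted p = 1 by edgeR), as did 2.01% of all genes (3.41% separated in either direction). Against Control, no member separated from the Control range (15.9% of all genes), and the estimate for Cspg5 was -0.85 (SE 0.44, adjusted p = 0.483).

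For Glutamate_BPC against Glutamate, 8 of 9 estimates were below 0, while 45.3% of all genes had an estimate above 0. The median was -1.01 over the members and -0.05 over all genes. These libraries also paired by number, and with the number as a block 7 of 9 estimates were below 0, with a median of -0.18 over the members and 0.04 over all genes. Ncan then turned from -1.16 to 0.05, and Ptprz1 went from -1.91 to -0.52 and Vcan from -1.01 to -0.39. The largest estimate without the block was that of Tnr, -2.19 (with the block -1.86, SE without it 0.82, unadjusted p = 0.0175 in the edgeR quasi-likelihood test, adjusted p = 1), a level 0.219 times that in Glutamate. A lower level at an unadjusted p below 0.05 was found for 0.667% of all genes, and a lower level without overlap for 4.24%. In either direction these shares were 1.07% and 7.13%. Without Glutamate 2 the log2 fold change of Tnr was -1.48 and its unadjusted p in the edgeR test was 0.101, and with all libraries of number 1 left out that p was 0.064. Against Control, Tnr was lower by -1.72 (SE 0.81, adjusted p = 0.443) and Hapln1 by -1.18 (SE 0.90, adjusted p = 0.677), and Bcan was higher by 0.58 (SE 0.42, adjusted p = 0.652). These 3 members did not overlap with Control, at a background of 24.9% of all genes. No member had an unadjusted p below 0.05 in this comparison (11.3% of all genes). Oligodendrocyte markers, from cells that make Tnr, summed to 365 to 558 CPM in Glutamate_BPC, 263 to 503 CPM in Control and 635 to 743 CPM in Glutamate. Over the 18 libraries, Pearson's r of Tnr with this sum, both as log2, was -0.116. The part of these markers in the level of Tnr was not tested.

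**Figure D2:**
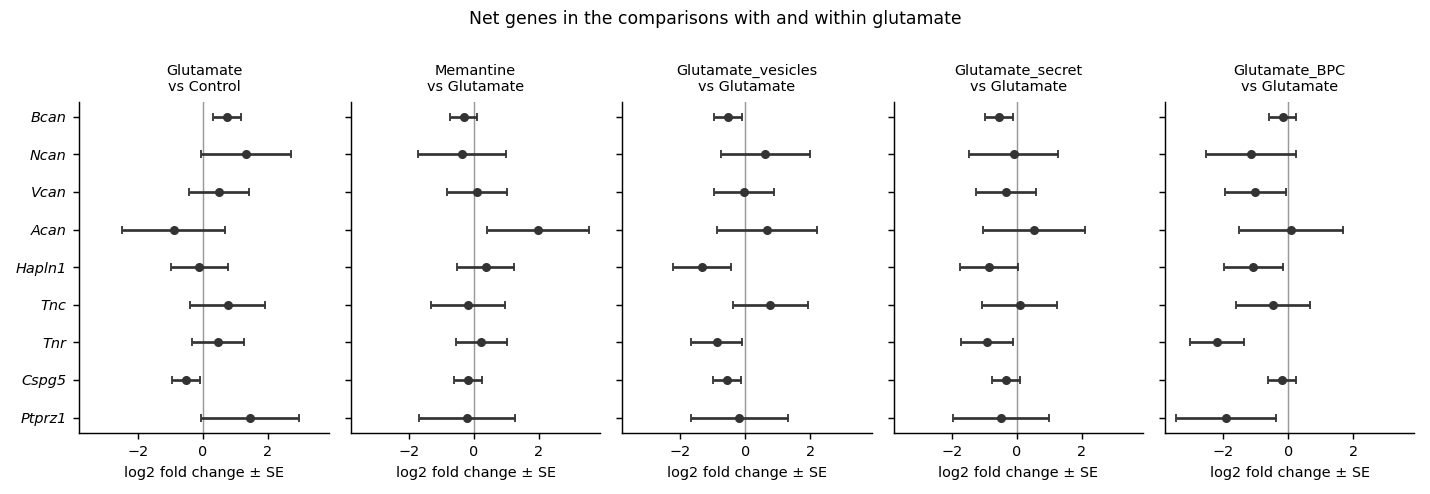
Log2 fold changes of the 9 genes (horizontal axes; points, bars are SE) in the comparison of Glutamate with Control and of each treated group with Glutamate (panels), from the edgeR fit to 18 libraries. No member was called in any panel, and the bars of Acan, Ncan and Ptprz1 are the longest while those of Bcan and Cspg5 are the shortest.

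Ratios of members within a library need no scaling between libraries. The log2 ratio of counts (0.5 added to each) was formed for 3 pairs, Tnc to Tnr, Ncan to Bcan and Vcan to Bcan, after the levels had been seen, and is given as a description with no test. The ratio of Tnc to Tnr was -0.34, 2.74 and 2.96 in Control and 1.61, 2.82 and 1.37 in Glutamate. It was 3.32, 3.88 and 5.22 in Glutamate_vesicles and 3.57, 5.20 and 2.85 in Glutamate_BPC, and all libraries of these groups were above all those of Glutamate. For Glutamate_BPC this rested on 2.85 in library 3 against 2.82 in Glutamate 2. How often the ratios of other gene pairs separate was not counted, so the separation is not read as particular to this pair. Memantine (2.06, 1.89 and 3.02) and Glutamate_secret (1.58, 4.23 and 0.89) overlapped with Glutamate. The ratios of Ncan and of Vcan to Bcan overlapped with those of Glutamate in every other group. A ratio of this kind shows unequal change of 2 genes and not which of them changed.

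An F test over all 6 groups called 0 members (edgeR, adjusted p from 0.992 to 1.00) and 0.00695% of all genes. At an unadjusted p below 0.05 it gave 0 members and 7.75% of all genes. In the same data, an F test over the 3 replicate numbers, in a model that kept the groups, called 7 members, at a background of 60.4% of all genes. The adjusted p values were 0.000994 for Ncan, Vcan and Ptprz1, 0.00109 for Tnc, 0.00115 for Acan, 0.0136 for Cspg5 and 0.0164 for Tnr. Hapln1 (0.0573) and Bcan (0.186) were not called. The calls of Ncan, Vcan, Tnc, Ptprz1 and Acan held when any 1 of the 18 libraries was left out. That of Tnr was lost without Glutamate 2 (adjusted p = 0.0520), Memantine 2 (0.0679) or Glutamate_vesicles 2 (0.0692), and that of Cspg5 without Glutamate_secret 2 (0.0502). More members and more genes were thus called by number than by group, but the models were unlike, since the group test left the number out. With the number as a block, the group F test gave 1 member and 15.7% of all genes at an unadjusted p below 0.05. It called 0 members, and the smallest adjusted p in this edgeR test was 0.270 for Cspg5. The share of all genes called by it is not given here, so this 0 is not read as particular to the members.

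Pairs of numbers were then compared, a step chosen after this F test had been seen. The libraries with number 2 differed from those with number 1 in 8 members, at a background of 61.2% of all genes. For 7 members the level was higher with number 2 (32.8% of all genes). Ptprz1 was 14.1-fold higher (log2 fold change 3.82, SE 0.55, adjusted p = 0.000342), and Ncan 12.3-fold (3.62, SE 0.52). Acan was 9.35-fold higher, on 20 to 86 counts against 0 to 7, Tnc 5.88-fold, Vcan 4.63-fold, Hapln1 3.13-fold and Tnr 2.31-fold. The call of Tnr was lost without library 1 or 2 of Glutamate, Memantine or Glutamate_vesicles or without Glutamate_secret 1 (adjusted p up to 0.117), and that of Hapln1 without Glutamate 1 or without library 1 or 2 of Memantine or Glutamate_vesicles (up to 0.0731). For Acan, Ncan, Vcan, Tnc and Ptprz1 each of the 6 libraries with number 2 was above each of those with number 1. No share of all genes is given for this separation, so it is not read as particular to the members. Cspg5 was lower with number 2, at 0.564 times the level (log2 fold change -0.83, SE 0.22, adjusted p = 0.00464), and it was lower in 6 of 6 groups (28.5% of all genes were called lower). Bcan was not called (-0.29, SE 0.25, adjusted p = 0.324).

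Levels by number show the same. Ptprz1 ranged from 41.4 to 93.7 CPM (median 61.5) with number 1, from 259 to 1547 CPM (median 1146) with number 2 and from 59.7 to 274 CPM (median 98.7) with number 3. Ncan had medians of 70.7, 1253 and 168 CPM for the numbers 1, 2 and 3, and Tnc had 63.8, 339 and 51.7 CPM. Cspg5 had medians of 160, 93.1 and 137 CPM, an order opposite to that of Ncan. Within number 2 the groups were not alike. Ncan had 1132 to 1851 CPM in Glutamate, Memantine, Glutamate_vesicles and Glutamate_secret, but 260 CPM in Control and 424 CPM in Glutamate_BPC, and Ptprz1 showed the same split.

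Number 2 also differed from number 3, in 7 members (41.9% of all genes). Ptprz1 (log2 fold change 2.91, SE 0.53), Acan (2.95, SE 0.65), Ncan (2.31, SE 0.50), Tnc (2.01, SE 0.50), Vcan (1.59, SE 0.34) and Tnr (1.45, SE 0.44) were higher with number 2 (19.8% of all genes), and Cspg5 (-0.57, SE 0.22) was lower (22.1%). The call of Cspg5 (adjusted p = 0.0488) was lost with RLE or upper-quartile scaling, with no filter on low counts, and when 1 library was left out in 15 of 18 cases, all but the Control libraries, with an adjusted p of up to 0.158. That of Tnr was lost without Memantine 2 or 3 (up to 0.0514). Numbers 3 and 1 were closer, with 0 members called by the edgeR quasi-likelihood test (1.51% of all genes) and 1 at an unadjusted p below 0.05, Ncan (1.31, SE 0.47, adjusted p = 0.124). In number 3 vs 1 Ncan was called by DESeq2 (log2 fold change of Ncan 1.28, adjusted p = 0.0433), as it was by edgeR without Glutamate_BPC 1 (adjusted p = 0.0318).

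**Figure D3:**
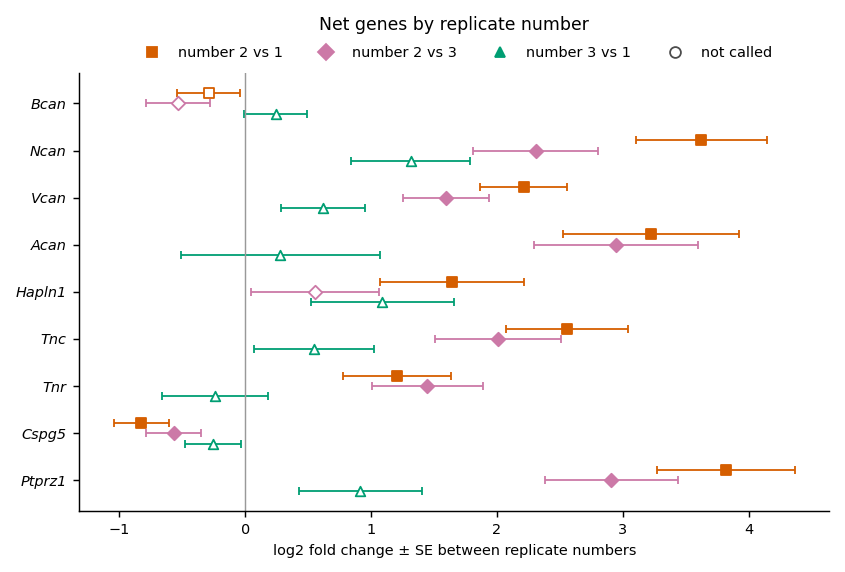
Log2 fold changes of the 9 genes between replicate numbers (horizontal axis; points, bars are SE), each over 6 libraries a number in a model with the groups. Filled symbols passed an adjusted p below 0.05 and open ones did not. Ptprz1, Ncan and Acan lie farthest to the right for number 2 against 1, and Cspg5 and Bcan lie left of 0.

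The share of rRNA in the libraries moved with the number. It was 13.4% to 43.0% with number 1, 3.04% to 8.15% with number 2 and 6.58% to 26.6% with number 3. With the log2 share of rRNA as a covariate, the F test over numbers called 0 members and 0.472% of all genes. The log2 fold changes of number 2 against 1 were then 2.81 for Ptprz1, 2.63 for Ncan, 2.43 for Acan, 1.41 for Vcan and 0.84 for Tnc, with adjusted p values of 0.144 for Ptprz1, Ncan and Vcan. The ranges of rRNA share of numbers 1 and 2 did not overlap, so that number and rRNA share cannot be told apart between them. The markers of oligodendrocyte progenitors, which also express several members, had a median sum of 587 CPM with number 1, 1032 CPM with number 2 and 633 CPM with number 3. Their part in the pattern was not tested.

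**Figure D4:**
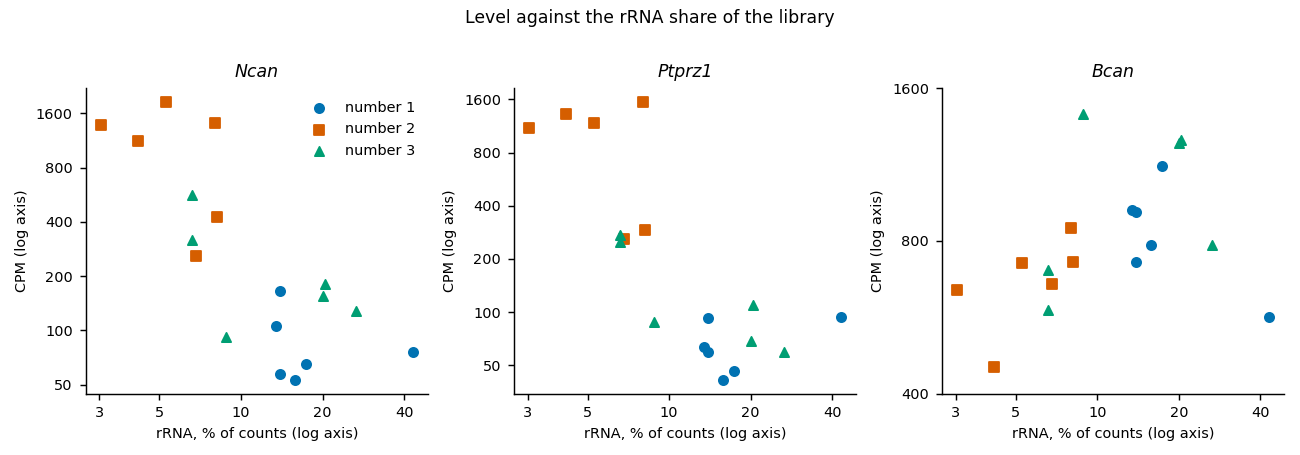
Level of Ncan, Ptprz1 and Bcan (vertical log axes, CPM) against the rRNA share of the same library (horizontal log axes, percent of counts). Points are the 18 libraries, coloured and shaped by replicate number. The libraries with number 2 lie at rRNA shares of at most 8.15% and include the highest levels of Ncan and Ptprz1, whereas the highest level of Bcan is in a library with number 3.

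Members were compared with each other by Pearson's r of log2 CPM over the 18 libraries, as a description, since the libraries share their groups and numbers. Vcan and Ptprz1 were the most alike (r = 0.985), followed by Ncan and Ptprz1 (0.964), Ncan and Vcan (0.943) and Ncan and Tnc (0.915). After centring within numbers these values were 0.944, 0.886, 0.800 and 0.811, so the 4 genes also moved together among libraries of the same number. Acan followed them across all libraries (0.840 with Ptprz1) but less after centring (0.474). Tnr and Hapln1, both parts of the mature net, had an r of 0.655 and, centred, 0.725. Cspg5 ran opposite to Tnc (-0.825, centred -0.702), and Bcan was below 0 with 7 of the other members, with r from -0.674 for Acan to -0.197 for Hapln1. Of the 36 pairs, 22 had an r above 0.

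**Figure D5:**
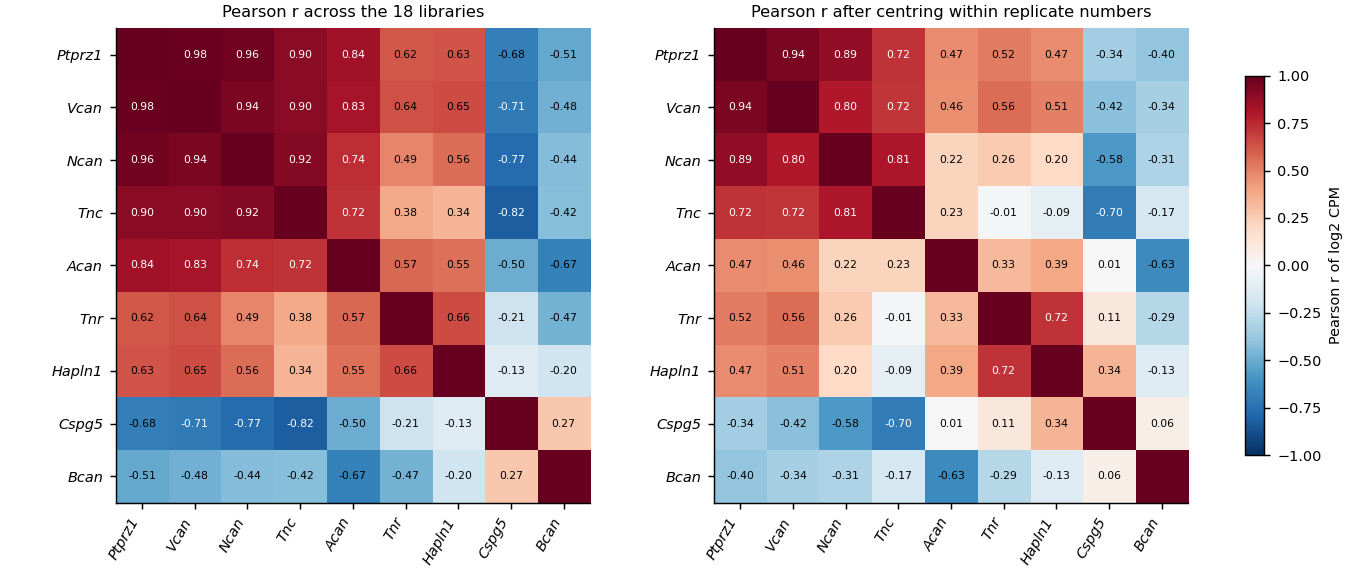
Pearson's r of log2 CPM between the 9 genes over 18 libraries (left) and after subtracting the mean of each replicate number (right), on a colour scale from -1 (blue) to 1 (red) with values printed in the cells. Ptprz1, Vcan, Ncan and Tnc form a block of high values on both sides, and Cspg5 and Bcan lie apart from it.

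The level of Bcan followed the astrocyte markers. Its r with the summed astrocyte markers was 0.823 over the 18 libraries, whereas that of Ncan was -0.129 and that of Ptprz1 was -0.265. Ncan had an r of 0.785 with the summed markers of oligodendrocyte progenitors and Tnc one of 0.770. With the markers of fibroblasts and mural cells, Ncan had 0.71 and Tnc 0.67, and with the scarce endothelial markers 0.585 and 0.55. These values with marker sums were not centred within numbers. Among the 8807 genes whose log2 CPM averaged 3 or more, those most like Bcan were Hadha, an enzyme of mitochondrial fatty acid oxidation (r = 0.941, centred 0.922), and Clu, the chaperone clusterin (0.916, centred 0.919). Most like Ncan were Nid1, the basement membrane protein nidogen (0.981), and LOC103692025 (0.980). Most like Ptprz1 were Bpnt2 (0.987) and Dennd4a (0.987), like Vcan was Taf2, a subunit of the general transcription factor TFIID (0.977), and most like Tnc were Eps8, an actin regulator (0.977), and Ppfibp1 (0.976). Tnr was most like Mga (0.956) and Tulp4 (0.932), Cspg5 most like Camk2n1, an inhibitor of CaM kinase II (0.920), and Ubac1 (0.890), Acan most like Usp46 (0.923) and Gfpt1 (0.922), and Hapln1 most like the intermediate filament gene Synm (0.870) and the GABA transporter Slc6a11 (0.857).

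The other genes of the net were followed as a list of 53, namely further link proteins and tenascins, other proteoglycans, enzymes of hyaluronan and of chondroitin sulphate, proteases that cut lecticans, and receptors and bound factors. Of these 45 were tested. Hapln2, Tnn, Dcn, Has1, Chst13, Chst14 and Otx2 had too few counts for the filter, and Tnxb was not analysed here. In none of the 9 comparisons was a gene of the list called by the edgeR quasi-likelihood test. At an unadjusted p below 0.05, 9 of 45 differed between Glutamate and Control, 4 higher and 5 lower, at a background of 8.11%. The smallest p values were those of Rtn4rl1, a Nogo receptor family member that binds chondroitin sulphate, and Chst12, a chondroitin 4-O-sulphotransferase. Rtn4rl1 had 18.2 ± 3.25 CPM (SD, n = 3) in Control and 2.00 ± 1.38 CPM in Glutamate (log2 fold change -3.21, SE 0.94, adjusted p = 0.294). Chst12 had 18.2 ± 1.32 and 6.43 ± 2.32 CPM (-1.50, SE 0.47, adjusted p = 0.329). Both were lower in every Glutamate library.

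Rtn4rl1 was also first in Memantine against Glutamate, with 16.4 ± 15.4 CPM in Memantine (3.05, SE 0.93, adjusted p = 0.611), followed by the hyaluronan-degrading Cemip (3.61, SE 1.24, adjusted p = 0.621). These comparisons share the Glutamate libraries. The Memantine value of Rtn4rl1 came from 32.6 and 14.4 CPM in libraries 1 and 2, and library 3 had 2.08 CPM. The neuronal markers of Memantine fell in the same order of libraries, with sums of 3150, 2086 and 613 CPM, and their part in it was not tested. Against Glutamate, the small proteoglycan biglycan (Bgn) was among the 2 smallest p values in all 3 groups with secreted material, with log2 fold changes of 1.27 (SE 0.98) for vesicles, 1.62 (SE 0.99) for Glutamate_secret and 1.88 (SE 1.00) for Glutamate_BPC. Beside it stood Cspg4 (NG2, a proteoglycan of oligodendrocyte progenitors) for vesicles (1.01, SE 0.61), the chain synthesis enzyme Csgalnact1 for Glutamate_secret (-1.23, SE 0.81) and the uronyl sulphotransferase Ust for Glutamate_BPC (-2.32, SE 1.37). The adjusted p of all 6 was 1.00.

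Against Control, the hyaluronan synthase Has2 and the protease Adamts1, which cuts lecticans, had the smallest p values in Glutamate_vesicles. Has2 had 14.7 ± 10.2 CPM against 1.64 ± 1.67 CPM (3.06, SE 0.90, adjusted p = 0.210), and Adamts1 had 18.8 ± 9.37 CPM against 0.686 ± 0.835 CPM (4.56, SE 1.36, adjusted p = 0.219). In this comparison the libraries of equal number deviated together, and the fit with the replicate number as a block called 7 of the 45 genes and 3.74% of all genes. Has2 (adjusted p = 0.0372 with the block), Adamts1 (0.0418), Bgn and Cspg4 were higher in Glutamate_vesicles than in Control, and Rtn4rl1, Rtn4r and Adamts15 were lower. These cultures also received glutamate. Without the block, Glutamate against Control gave log2 fold changes of 2.34 for Has2, 3.48 for Adamts1, 0.57 for Bgn and 0.52 for Cspg4. For Rtn4rl1, Rtn4r and Adamts15 it gave -3.21, -1.66 and -1.84. Between Glutamate_vesicles and Glutamate, also without the block, 0 of the 45 genes had an unadjusted p below 0.05 in the edgeR test (1.08% of all genes). None of the 9 members was called with the block. Cspg5 then had an adjusted p of 0.0615 and Hapln1 one of 0.233 (unadjusted p = 0.0434 in the edgeR test). At an unadjusted p below 0.05 the fit with the block gave 2 members and 19.8% of all genes. The log2 fold changes of Ncan and Ptprz1 went from 1.95 to 1.10 and from 1.26 to 0.13 with the block. Adamts1 was also among the first in Glutamate_BPC (3.87, SE 1.32, adjusted p = 0.304), where Cemip was lower (-3.98, SE 1.28, adjusted p = 0.303), and in Memantine (1.90, SE 1.25, adjusted p = 1), where it stood beside the link protein Hapln3 (0.45, SE 0.29, adjusted p = 1). In Glutamate_secret, Rtn4rl1 (-2.89, SE 0.93, adjusted p = 0.230) and Chst12 (-1.40, SE 0.47, adjusted p = 0.242) were again the first. All these comparisons share the Control libraries.

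The list followed the replicate number as the members did. Number 2 against 1 gave 34 of 45 genes, 22 higher and 12 lower (75.6%, against 61.2% of all genes). Among enzymes that build or modify chondroitin sulphate chains, Xylt1 (3.21, SE 0.60), which starts the chain, Chsy1 (2.20, SE 0.35), Dse (2.21, SE 0.39), Chst15 (2.17, SE 0.36) and Csgalnact1 (1.87, SE 0.33) were higher with number 2. Chpf (-1.30, SE 0.25), B4galt7 (-1.34, SE 0.26) and B3gat3 (-1.26, SE 0.25) were lower. The binding partners of Ptprz1 differed in direction. The adhesion molecule Cntn1 was higher with number 2 (3.04, SE 0.56, adjusted p = 0.000444), and the secreted ligands Ptn (-1.42, SE 0.30, adjusted p = 0.00113) and Mdk (-2.38, SE 0.46, adjusted p = 0.000578) were lower. The adjusted p values of the 8 enzymes lay between 0.000342 and 0.000692.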

How the data were processed

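RNA-seq of 18 rat neuroglial culture libraries was analysed. The authors trimmed reads with Trimmomatic and Cutadapt, quantified Ensembl transcripts of rn6 with Salmon (genome as decoy) and summed them to genes with tximport; their processing notes also name STAR with no role given, and the sources used here give no version of Salmon or STAR. The labels and the study's methods name different library kits. The deposited values are estimated counts (expected counts) per gene, which need not be whole; they were rounded to whole numbers before testing. Salmon shares reads among near-identical transcripts, so such genes are uncertain.

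Groups and replicate numbers came from the labels. Genes were kept by edgeR's filterByExpr (minimum count 10, minimum total 15), giving 14398 genes. Libraries were scaled by TMM, and levels are CPM at the scaled library size (log2 values with a prior count of 2). The main test was the two-sided quasi-likelihood F test of edgeR 4.0.16 (R 4.3.3) in 1 fit of 18 libraries, with Benjamini-Hochberg adjustment over all genes and calls at an adjusted p below 0.05. The SE is the absolute log2 fold change divided by the square root of F. Replicate numbers were tested in a model with the groups. The script was tested on simulated data. Alternatives were DESeq2 1.42.0, the likelihood-ratio test, other scalings, no filter, rRNA rows (78) left out, the log2 rRNA share as a covariate, a replicate block, the compared groups alone and leaving out libraries. Leaving out all libraries of a number, and contrasts between numbers, were chosen after seeing the data. The members and lists were chosen with earlier results of these data known. Levels were not compared between genes, since no transcript lengths were used here.

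Same-numbered libraries were taken as paired where their deviations from the group means correlated above 0.1 for every number. This held for Glutamate_vesicles against Control (r = 0.600, 0.505 and 0.208 for numbers 1 to 3) and for Memantine, Glutamate_secret and Glutamate_BPC against Glutamate, and the pairing comes from the data only. Named were all 9 members, for each comparison the genes of the net list that were called or, with none called, the 2 with the smallest p, and for each member the 2 most correlated other genes whose log2 CPM averaged 3 or more. For Vcan, 1 of these is not reported here. Genes named in contrasts of numbers, and those called with the block, were chosen after their values were seen. Intervals and limits cover counting error only.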

Additional observations from a re-analysis of the deposited data

How the results depend on the processing

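In the 9 comparisons of groups and the F test over 6 groups, 0 members were called under every alternative, and 0 to 2 had an unadjusted p below 0.05. The shares of all genes are not given beside all of these counts, which are therefore not read as particular to the members. Of 1443 recomputed fold changes of members, 159 changed sign. With rRNA share (log2) added as a covariate, 0 members were called in the F test over numbers (from 7), in number 2 against 1 (from 8) and in number 2 against 3 (from 7), and the log2 fold changes turned to -0.10 for Acan and -0.066 for Tnc in number 3 against 1 and to 0.10 for Hapln1 in Glutamate against Control; the cause was not tested. DESeq2 called 1 member, Ncan, in number 3 against 1, and 10.7% of all genes.

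With the replicate block, Glutamate against Control, whose libraries did not pair by number (r = 0.591, 0.571 and -0.117), gave -0.12 for Vcan and -0.26 for Ptprz1. In comparisons that did not pair, the block called Rtn4rl1 and Chst12 in Glutamate against Control (2 of 45 genes of the list). Against Control it called 4 genes of the list in Glutamate_secret and 2 in Glutamate_BPC. Of all 14398 genes tested, the block called 166, 700 and 251 in these comparisons, so the calls are not read as particular to the list. In the paired Glutamate_vesicles against Control it called 7 genes of the list and 538 of all genes. The block changed no call of a member in any comparison. In the paired Glutamate_secret against Glutamate, Tnc went from 0.08 to -0.28.

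Leaving out 1 library, or all libraries of 1 number, number 3 against 1 gave 0 to 1 called members. Fold changes that turned were, in Glutamate against Control, Ncan (-0.82 to 2.12), Vcan (-0.995 to 1.19), Tnc (-0.87 to 1.64), Tnr (-0.42 to 0.98), Hapln1 (-0.69 to 0.38) and Ptprz1 (-1.42 to 2.16), and in number 3 against 1 Acan (-0.13 to 0.68), Tnc (-0.0071 to 0.81) and Tnr (-0.49 to 0.029). With 1 library left out, Hapln1 was called over numbers in 3 of 18 fits and by DESeq2 (adjusted p = 0.0341). Acan and Hapln1 are limited by depth, at 0 to 89 counts a library.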
